A study of Rattus norvegicus with 32 samples.

Results

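*Cpa1*, *Cel*, *Pnlip* and *Prss1* encode digestive enzymes that the exocrine pancreas secretes, and all 4 were read here on spleen arrays of *Csf1r*-deficient rats. They were selected on measured values, as genes high on 1 spleen array (HET 1), by taking the probe set whose only gene symbol was theirs. Each of the 4 had 1 such probe set, out of 14557 symbols measured and 36685 probe sets on the array. The 4 passed a filter that kept 9507 genes in the spleen set, an intensity of at least 20 on at least 1 array. HET 1 therefore chose the members, and what follows for the 8 spleen and BMDM arrays is a description with no test.

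The series held 32 Affymetrix Rat Gene 2.1 ST arrays, 2 per group. Spleen, pituitary gland, olfactory bulbs, striatum and hippocampus came from adult female rats of DA/SD strain, which were *Csf1r* +/+ (WT), *Csf1r* +/- (HET) or *Csf1r* -/- (KO), and were not perfused. BMDM, macrophages grown from bone marrow in recombinant human CSF1, came from adult male DA rats with *Csf1r* +/+. The mutant allele carries an EGFP-PGK-Neo cassette in the first coding exon in every cell, and the colony goes back to 1 targeted clone of embryonic stem cells. The 8 spleen and BMDM arrays were normalized apart from the 24 brain and pituitary arrays, and levels are not set against each other across these sets. Arrays of different tissues can come from the same rats, so the spread between arrays may understate that between animals.

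The acinar cell of the pancreas makes digestive enzymes in bulk, packs them into zymogen granules and releases them into the duct after a meal. Trypsinogens, chymotrypsinogens, proelastases and procarboxypeptidases leave the cell as inactive precursors, and trypsin activates the others in the gut lumen. Lipases split dietary fat with the help of bile salts and colipase. The spleen is not a secretory organ of this kind, and the tail of the pancreas reaches its hilum. *Cpa1* encodes carboxypeptidase A1, which removes aromatic and aliphatic residues from the C-terminal end of peptides. *Cel* encodes the bile salt-dependent carboxyl ester lipase, *Pnlip* pancreatic triglyceride lipase, and *Prss1* a trypsinogen.

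The windows upstream of the 4 genes are shown because the members moved together on 1 array, and acinar enzyme genes are known to be driven by PTF1, a complex that binds an E-box and a TC-box. The sequences are from RefSeq (build GRCr8), run from 250 bases before to 50 bases after the annotated start, and are written along the strand of the gene. Capitals mark the E-box CACCTG, the TC-box TTTCCC and the TATA-box TATAAA. A motif on the opposite strand is capitalised as it reads along the printed strand, the E-box as CAGGTG and the other motifs likewise as their reverse complements. The windows are chr4:60224551-60224850 (plus strand) for *Cpa1*, chr3:32288970-32289269 (minus strand) for *Cel*, chr1:267784360-267784659 (plus strand) for *Pnlip* and chr4:71330999-71331298 (plus strand) for *Prss1*.
Cpa1: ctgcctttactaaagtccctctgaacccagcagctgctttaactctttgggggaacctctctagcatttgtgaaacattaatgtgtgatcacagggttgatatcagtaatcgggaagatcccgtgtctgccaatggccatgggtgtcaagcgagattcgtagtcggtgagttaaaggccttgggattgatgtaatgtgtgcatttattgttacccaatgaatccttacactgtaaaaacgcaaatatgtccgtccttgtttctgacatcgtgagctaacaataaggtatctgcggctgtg
Cel: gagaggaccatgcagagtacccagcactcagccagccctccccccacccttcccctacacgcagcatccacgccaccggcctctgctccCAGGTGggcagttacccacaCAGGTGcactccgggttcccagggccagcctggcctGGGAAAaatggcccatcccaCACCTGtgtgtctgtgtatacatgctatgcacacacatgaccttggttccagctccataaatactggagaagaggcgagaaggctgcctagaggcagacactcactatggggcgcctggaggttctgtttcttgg
Pnlip: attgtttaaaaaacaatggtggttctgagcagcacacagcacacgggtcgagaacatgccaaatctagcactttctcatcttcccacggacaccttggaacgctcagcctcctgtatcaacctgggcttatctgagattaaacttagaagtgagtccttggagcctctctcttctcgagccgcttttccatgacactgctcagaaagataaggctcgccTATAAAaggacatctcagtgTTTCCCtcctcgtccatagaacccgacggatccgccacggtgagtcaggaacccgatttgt
Prss1: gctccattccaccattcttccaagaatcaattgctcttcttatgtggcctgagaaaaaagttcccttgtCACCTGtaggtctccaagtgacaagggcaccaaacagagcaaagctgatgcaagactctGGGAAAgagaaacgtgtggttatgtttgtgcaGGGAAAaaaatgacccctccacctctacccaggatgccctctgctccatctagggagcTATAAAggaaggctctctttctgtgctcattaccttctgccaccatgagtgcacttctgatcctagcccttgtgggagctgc

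Searched on both strands with no overlap between these motifs, *Prss1* held all 3, namely 1 E-box, 2 TC-boxes and 1 TATA-box. *Cel* held 3 E-boxes and 1 TC-box, *Pnlip* 1 TC-box and 1 TATA-box, and *Cpa1* none of these letters. Of all 33469 windows of the same length, 18.8% held the E-box, 25.1% the TC-box, 14.2% the TATA-box and 0.565% all 3. A match describes the letters alone, and only these exact strings were searched, so other forms of the motifs were not counted.

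The content of some arrays went against their labels, which bears on the reference values. Genes of the spleen (*Tlx1*, *Tcf21*, *Clec4m*, *Siglec1*, *Ms4a1* and *Cd22*) summed to an intensity of 2331 to 3208 on WT 1, WT 2, HET 1 and KO 1, against 354 on HET 2 and 108 on KO 2. The 6 thymus genes measured (*Prss16*, *Foxn1*, *Ccl25*, *Rag1*, *Rag2* and *Psmb11*) summed to 4049 on HET 2 and 4305 on KO 2, and to 56.3 to 70.9 on the remaining spleen arrays. HET 2 and KO 2 are therefore called the arrays labelled spleen HET 2 and KO 2, and results that rest on them are given without them too. The log2 intensity of *Csf1r* itself was 10.37 and 10.18 in WT, of 9.75 (HET 1) and 7.05 (HET 2) in HET, and of 4.81 (KO 1) and 3.28 (KO 2) in KO. Among the brain arrays, those labelled olfactory bulbs carried pituitary hormone transcripts, with *Prl* at 12.07 to 12.18 and *Pomc* at 11.10 to 11.52. Those labelled pituitary gland read 5.96 to 9.64 for *Prl* and 3.31 to 4.50 for *Pomc*. *Prl* read 3.76 to 7.48 in hippocampus and 3.78 to 6.77 in striatum. *Omp*, the olfactory marker protein, read 6.54 to 9.48 on the arrays labelled pituitary gland and 3.32 to 3.74 on those labelled olfactory bulbs.

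Carboxypeptidase A1 gave the widest gap of the 4. *Cpa1* gave a log2 intensity of 9.70 on HET 1, against 3.60 (WT 1), 4.87 (WT 2), 2.83 (HET 2), 4.50 (KO 1) and 2.70 (KO 2) on the other spleen arrays and 3.45 and 3.83 on the BMDM arrays. HET 1 stood alone, and WT and KO overlapped. Its excess over WT 2, the next highest spleen array, was 4.83, or 28.5-fold (intensity 831 against 29.2), and over the WT mean of 4.23 ± 0.90 (SD, n = 2) it was 44.2-fold. WT 2 and KO 1 were the only other arrays at an intensity of 20 or more, which is 4.32 on the log2 scale.

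*Cel* gave 8.78 on HET 1, against 3.46 (WT 1), 4.56 (WT 2), 3.79 (HET 2), 3.94 (KO 1) and 3.72 (KO 2) on the other spleen arrays and 2.63 and 3.13 on BMDM. HET 1 was again apart from 7 arrays that lay close to background, and WT 2 was the next highest. The excess was 4.22, or 18.7-fold, and the WT mean was 4.01 ± 0.78 (SD, n = 2).

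*Pnlip*, the lipase that works with colipase at the surface of fat droplets, gave 7.41 on HET 1, against 2.54 (WT 1), 4.23 (WT 2), 3.50 (HET 2), 4.62 (KO 1) and 3.48 (KO 2) and 2.12 and 3.63 on BMDM. Here KO 1 was the next highest spleen array, and WT and KO overlapped. The excess on HET 1 was 2.79, or 6.93-fold, with a WT mean of 3.39 ± 1.20 (SD, n = 2).

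*Prss1*, the trypsinogen, gave 6.82 on HET 1, against 2.35 (WT 1), 4.27 (WT 2), 2.81 (HET 2), 3.25 (KO 1) and 3.27 (KO 2) and 2.60 and 2.06 on BMDM. No array other than HET 1 reached an intensity of 20. The excess was 2.56, or 5.88-fold over WT 2, and the WT mean was 3.31 ± 1.36 (SD, n = 2). These folds set HET 1 against arrays near or below an intensity of 20, where array background limits the value, and 1 array has no replicate.

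**Figure D1:**
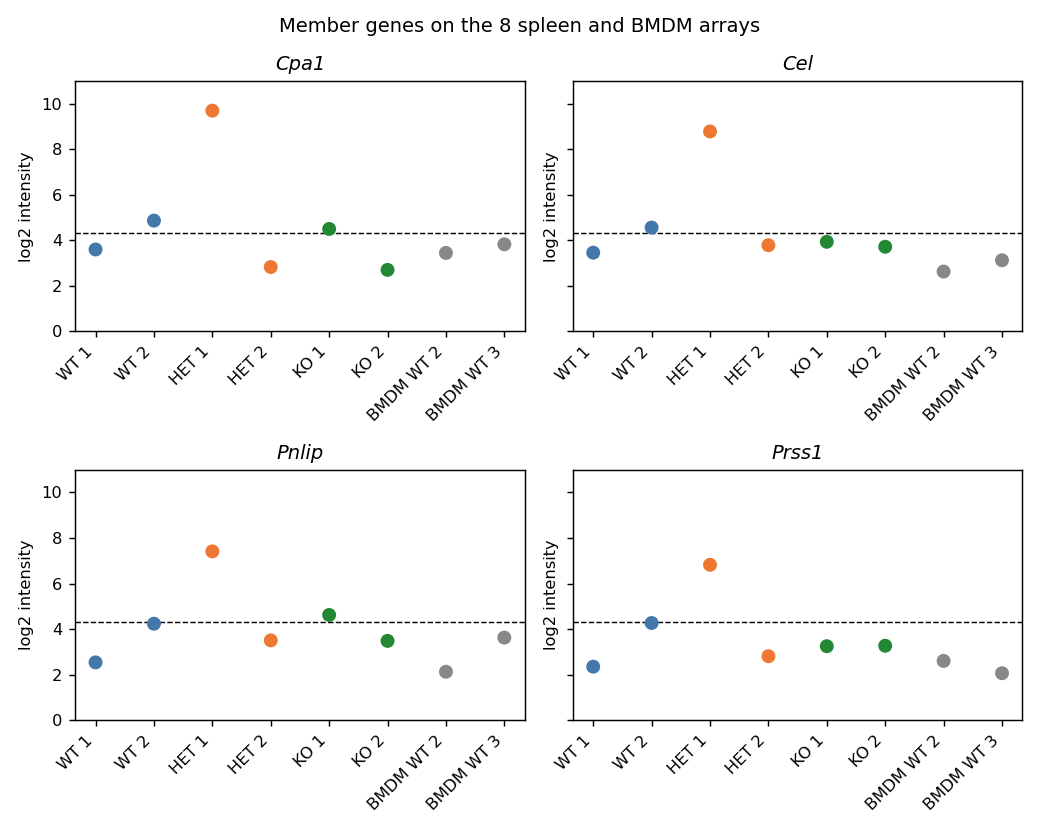
Log2 intensity of the 4 genes (vertical axis) on each of the 6 spleen and 2 BMDM arrays (horizontal axis), 1 point per array, with blue for WT, orange for HET, green for KO and grey for BMDM. The dashed line is an intensity of 20 (4.32), and in each panel HET 1 (6.82 to 9.70) lies above the other 7 arrays, of which none exceeds 4.87.

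To see how many genes behaved like the members, HET 1 was set against the highest of the other 5 spleen arrays for every gene. An excess of at least 2 on the log2 scale was found for 18 of 9507 genes, or 0.189%, and this is the share against which the members' count of 4 of 4 stands, although HET 1 chose them. Of these 18 genes, 17 were in lists of acinar genes, and the other was annotated *PRSS2* in capitals, with no entry that tied it to the rat gene. The array labelled spleen HET 2 also had 18 genes at least 2 above the other spleen arrays, none of them in the acinar lists, and WT 1, WT 2, KO 1 and the array labelled spleen KO 2 had 0. A gene high on both HET 2 and KO 2, such as *Prss16* (10.47 and 10.76), cannot count for either. At least 1 above the others were 22 genes on HET 1, 43 on HET 2 and 31 on KO 2. KO 1 had 12 such genes, WT 2 had 4 and WT 1 had 2. The last gene past an excess of 2 on HET 1 was *Sycn* (2.42), which encodes the granule protein syncollin, and the next was *Cuzd1* (1.73), which encodes a zymogen granule membrane protein.

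**Figure D2:**
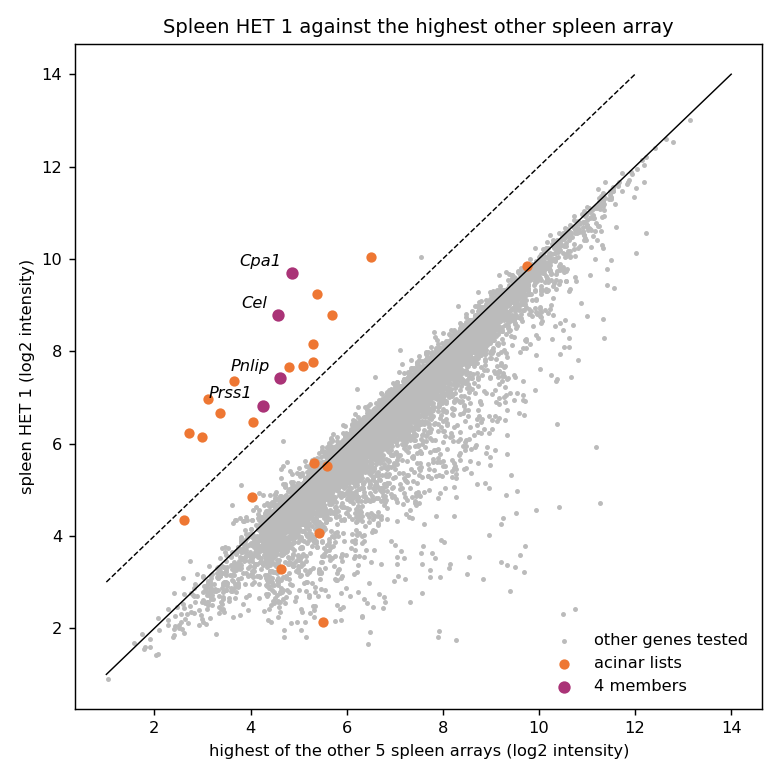
Each point is 1 of 9507 genes, with its highest log2 intensity on the other 5 spleen arrays on the horizontal axis and its log2 intensity on HET 1 on the vertical axis; orange marks acinar list genes and purple the 4 members. The solid line is equality and the dashed line an excess of 2, above which lie 17 acinar list genes and *PRSS2*.

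The acinar lists named 51 genes, of which 36 had a probe set with 1 symbol. Of these 36, 25 reached an intensity of 20 on some array of the spleen set, and 16 did so on an array other than HET 1, so the counts below are over all 36. In all, 17 of 36 had an excess of at least 2 on HET 1, 20 of 36 of at least 1, and 25 of 36 were higher on HET 1 than on every other spleen array. Over all 9507 genes tested, 22 (0.231%) had an excess of at least 1 and 1018 (10.7%) were highest on HET 1 among the spleen arrays. The median excess was 1.68, against -0.33 over all 9507 genes. The 36 were not filtered and the 9507 were, so these shares are over unlike sets. *Serpini2* (3.55 on HET 1) and *Reg1a* (3.96) counted among the 20 though under an intensity of 20 on HET 1 itself. *Spink1* (3.30) and *Aqp12a* (4.05) counted among the 25 in the same way.

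Among the proteases, 9 of 11 had an excess of at least 2. After *Cpa1* came *Prss3b* (3.86), a trypsinogen, *Ctrb1* (3.55), which encodes chymotrypsinogen B, and *Cela3b* (3.15), a proelastase. *Ctrl* (3.07), *Ctrc* (2.86), *Cela1* (2.60), *Prss1* and *Cela2a* (2.47) completed the count. *Ctrb1* read 3.71 on WT 1, 6.50 on WT 2, 10.05 on HET 1, 4.33 on HET 2, 6.21 on KO 1 and 4.88 on KO 2, so WT 2 and KO 1 were the next highest for it too. The exceptions were *Try10* (0.25) and *Klk1* (-0.31). The 3 *PRSS2* probe sets disagreed, with excesses of -0.22, 2.49 and 0.42, and trypsinogens are near-identical copies, so signal can be shared between them.

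All 4 lipases measured passed, and they were *Cel*, *Pnliprp1* (3.87), a relative of *Pnlip* that lies next to it on chromosome 1, *Pla2g1b* (2.87), the pancreatic phospholipase A2, and *Pnlip*. *Rnase1* (3.50), pancreatic ribonuclease, passed and *Dnase1* (-0.24) did not. Of 9 granule and secreted proteins, 3 passed, which were *Zg16* (3.70) and *Gp2* (3.29), both of the zymogen granule membrane, and *Sycn*. *Cuzd1*, *Serpini2* (1.64) and *Reg1a* (1.20) had an excess between 1 and 2, while *Spink1* (0.30), *Muc13* (-1.36) and *Reg3b* (-3.37) lay lower. *Reg3b*, an antibacterial lectin, was highest on the arrays labelled spleen HET 2 (4.56) and KO 2 (5.51).

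No excess like that of the enzymes was seen for the transcription factors and secretory machinery of the acinar cell. Of the 10 measured, only 4 reached an intensity of 20 on some array of the spleen set. The rest lay at background and cannot show whether they followed the enzymes. None of 10 had an excess of 1 or more, and the highest were *Pdia2* (0.80), a pancreatic disulfide isomerase, *Aqp12a* (0.70) and *Xbp1* (0.08). *Xbp1* was high on every spleen array, at 9.84 on HET 1 and 8.80 to 9.76 on the others. *Ptf1a*, the bHLH subunit of PTF1, read 2.97 on HET 1 against 2.96 to 3.80 on the other spleen arrays. *Rbpjl* read 5.52 against 4.86 to 5.60, *Bhlha15* 4.07 against 3.37 to 5.41, *Nr5a2* 2.67 against 2.35 to 3.03 and *Gata4* 2.95 against 2.82 to 3.17. *Tmed6* (-0.60) and *Aqp8* (-0.41) were also lower on HET 1 than on at least 1 other spleen array.

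Other cell types of the pancreas and of organs around the spleen had no such excess on HET 1. None of 13 islet genes was higher there than on every other spleen array, and the 3 closest were *Nkx6-1* (-0.16), *Ppy* (-0.19) and *Pcsk2* (-0.28). Without the arrays labelled spleen HET 2 and KO 2, *Pcsk2* was highest on HET 1 (2.85, next 2.77 on WT 2). So was *Pyy* (3.27, next 3.25 on WT 2), and these readings lay under an intensity of 20. *Ins1* read 3.21 on HET 1 against 2.44 and 3.26 in WT, and *Ins2* 4.50 against 4.88 and 4.48. None of 8 duct genes was higher on HET 1 than on every other spleen array, with *Muc1* (-0.08), *Onecut1* (-0.29) and *Cftr* (-0.30) closest. Without the arrays labelled spleen HET 2 and KO 2, *Epcam* was highest on HET 1 (3.21, next 3.20 on WT 1). The counts past an excess of 2 were also 0 of 8 for adipocytes, 0 of 5 for mesothelium and 0 of 7 for stomach. They were 0 of 6 for intestine, 0 of 5 for liver and 0 of 5 for mast cells. An intensity of 20 on some array of the spleen set was reached by 5 of 13 islet, 4 of 8 duct, 7 of 8 adipocyte and 4 of 5 mesothelium genes. For stomach it was 2 of 7, for intestine 1 of 6, for liver 1 of 5 and for mast cells 3 of 5. Genes at background cannot show whether these cells were absent. The spleen genes on HET 1 summed to an intensity of 3086, between those of WT 2 (2808) and WT 1 (3208), and 0 of 6 had an excess of 2.

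**Figure D3:**
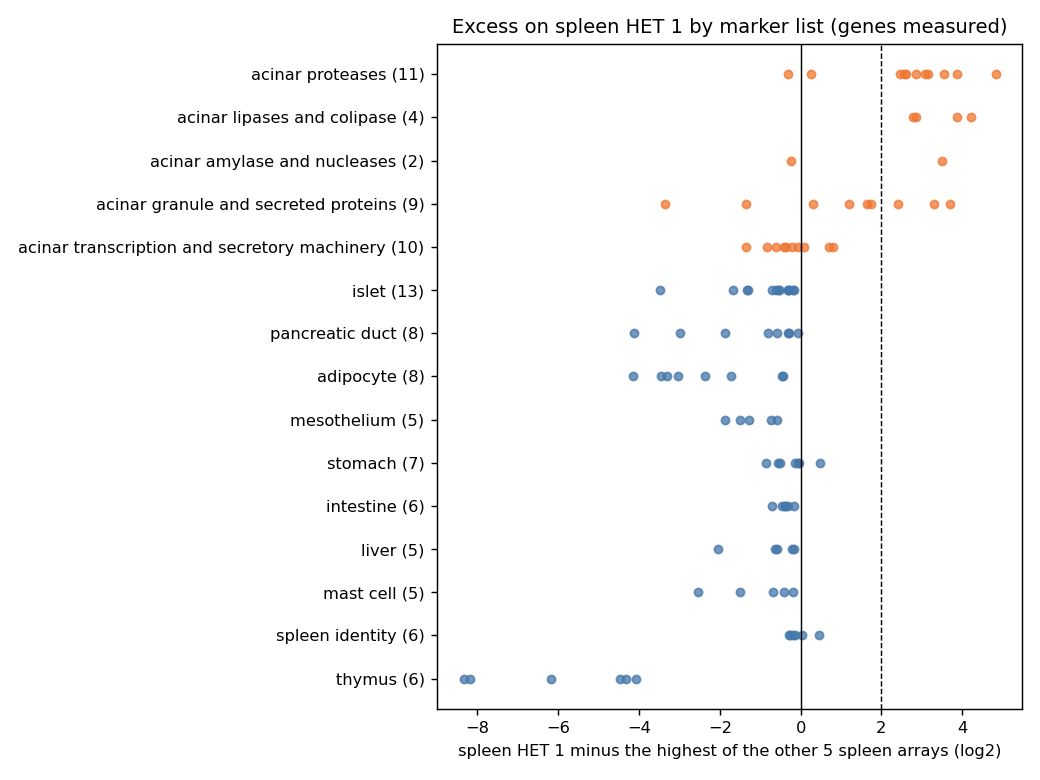
Difference in log2 intensity between HET 1 and the highest of the other 5 spleen arrays (horizontal axis) for each measured gene of 15 marker lists (rows, number of genes in brackets), with acinar lists in orange. The dashed line is a difference of 2, which only genes of the first 4 acinar lists passed, and islet and duct genes all lie below 0.

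Relatives of the members by family, rather than by cell type, did not share the pattern. In the carboxypeptidase family 1 of 6 genes measured had an excess of 2 on HET 1, namely *Cpa1*. *Cpa4* and *Cpa5*, which lie beside *Cpa1* on chromosome 4 in RefSeq, read 2.72 and 2.53 on HET 1 with excesses of -0.49 and -0.30. The mast cell gene *Cpa3* read 3.27 on HET 1 and 3.50 to 5.81 on the other spleen arrays. In the lipase family 3 of 9 passed, namely *Cel*, *Pnliprp1* and *Pnlip*, while the lysosomal lipase *Lipa* (-0.80) and lipoprotein lipase *Lpl* (-0.23) did not.

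The genes whose log2 intensity over the 8 arrays was most like that of each member were nearly all acinar. For *Cpa1* the 5 highest Pearson correlations were with *Pnliprp1* (r = 0.98), *Sycn* (r = 0.98), *Cela2a* (r = 0.98), *Rnase1* (r = 0.97) and *Zg16* (r = 0.97). For *Cel* they were with *Ctrl* (r = 0.99), *Cela2a* (r = 0.97), *Prss1* (r = 0.96), *Pnliprp1* (r = 0.96) and *Rnase1* (r = 0.96). *Prss1* was most like *Ctrb1* (r = 0.98), *Cel* (r = 0.96), *Pla2g1b* (r = 0.95), *Ctrl* (r = 0.95) and *Gp2* (r = 0.94). *Pnlip* was the exception, with *Kiaa1549* (r = 0.96) and *Dkkl1* (r = 0.95) between *Cela2a* (r = 0.97), *Pla2g1b* (r = 0.95) and *Ctrl* (r = 0.94). These values rest on HET 1, which all of these genes share. Between members r was 0.90 to 0.96 over 8 arrays and 0.44 to 0.82 over the 7 arrays without it.

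Among the other spleen arrays the acinar genes lay mostly at background, so their differences are given as values only. Of the 26 acinar genes outside the transcription and machinery list, 4 reached an intensity of 20 on WT 1, 9 on WT 2 and 9 on KO 1. Relative to WT 1, WT 2 was higher for all 4 members, by 1.27 for *Cpa1*, 1.10 for *Cel*, 1.70 for *Pnlip* and 1.92 for *Prss1*. Of the 26 genes, 7 were at least 1 higher on WT 2 than on WT 1, which were the 4 members with *Ctrb1*, *Pla2g1b* and *Prss3b*, where 0.442% of all genes tested were. All 7 lay under an intensity of 20 on WT 1, and *Pnlip*, *Prss1* and *Prss3b* did so on WT 2 too. KO 1 was at least 1 higher than WT 1 for 5 of 26, which were *Ctrb1*, *Pla2g1b*, *Pnlip*, *Prss3b* and *Zg16*, where 0.905% of all genes were. These 5 also lay under 20 on WT 1, and *Prss3b* and *Zg16* did so on KO 1 too. Several of the 26 passed the filter on low values through HET 1 alone, so these shares are no measure of the acinar genes on WT 2 or KO 1. For KO 1 the members' differences were 0.90 for *Cpa1*, 0.48 for *Cel*, 2.08 for *Pnlip* and 0.90 for *Prss1*.

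The arrays labelled spleen HET 2 and KO 2 gave 2 of 26 and 5 of 26, against 9.17% and 9.54% of all genes. None of the 4 members was 1 or more above WT 1 on either of them. *Prss3b* and *Reg3b* led both, and *Prss3b* read 4.90 and 5.39 there against 2.77 on WT 1. The median difference from WT 1 over the 26 genes was 0.61 on WT 2, 0.56 on KO 1, 0.11 on HET 2 and 0.17 on KO 2, while that over all genes was at most 0.06. Summed over the 26 genes, the intensity was 279 on WT 1, 522 on WT 2, 5328 on HET 1, 342 on HET 2, 473 on KO 1 and 382 on KO 2, and 338 and 403 on BMDM. No comparison among these arrays has replicates of its own, and whether more acinar cells or more RNA per cell lay behind a level cannot be told apart in bulk tissue.

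**Figure D4:**
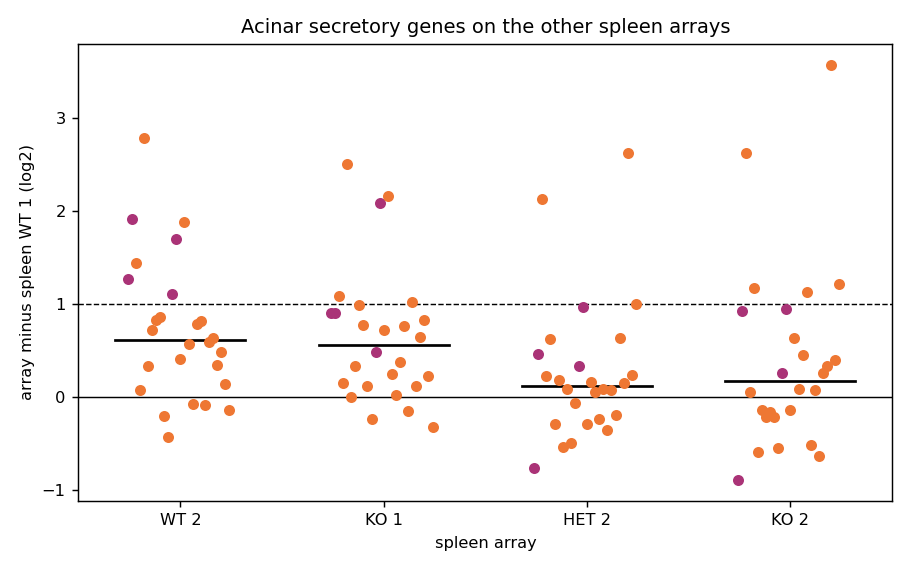
Difference in log2 intensity from spleen WT 1 (vertical axis) for 26 acinar secretory genes on the other 4 spleen arrays except HET 1 (horizontal axis), with the 4 members in purple and the median as a bar. The medians are 0.61 on WT 2, 0.56 on KO 1, 0.11 on HET 2 and 0.17 on KO 2, and the dashed line is a difference of 1.

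The KO spleen arrays were also set against the mean of the WT and HET arrays, here called littermates, a reference into which HET 1 enters. The sources do not state whether HET arrays belonged to the reference that the study used. For *Cpa1* the mean intensity was 14.6 in KO and 220 in littermates, a ratio of 0.0663, the 7th lowest of 9507 genes. Without HET 1 the littermate mean was 16.1 and the ratio 0.904, and against WT alone (20.7) it was 0.706. For *Cel* the ratio was 0.116, the 9th lowest, and became 0.883 without HET 1 and 0.823 against WT.

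*Prss1* had a ratio of 0.265, which became 0.915 without HET 1 and 0.786 against WT. *Pnlip* had a ratio of 0.346, which turned to 1.49 without HET 1 and 1.45 against WT. In these 3 comparisons, the members had a ratio of 0.5 or less only where HET 1 was in the reference. Over all genes 290 of 9507, or 3.05%, had such a ratio, 17 of them in the acinar lists, and without HET 1 the count was 215, or 2.26%, with 0 in the acinar lists. Of the 290 genes, 81 were not among the 215, and these 81 included the 17 acinar genes.

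The mean of the log2 values, which gives HET 1 less weight, moved the ratios to 0.319 for *Cpa1*, 0.401 for *Cel*, 0.773 for *Pnlip* and 0.573 for *Prss1*. With KO 1 alone against WT 1, WT 2 and HET 1, leaving out the arrays labelled spleen HET 2 and KO 2, the ratios were 0.0779 for *Cpa1*, 0.0967 for *Cel*, 0.378 for *Pnlip* and 0.207 for *Prss1*. With HET 1 also left out they were 1.10, 0.885, 2.00 and 0.780 in the same order. On the log2 scale KO minus WT was -0.63 for *Cpa1*, -0.18 for *Cel*, 0.67 for *Pnlip* and -0.05 for *Prss1*, and the 2 KO arrays overlapped the 2 WT arrays for all 4 genes.

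**Figure D5:**
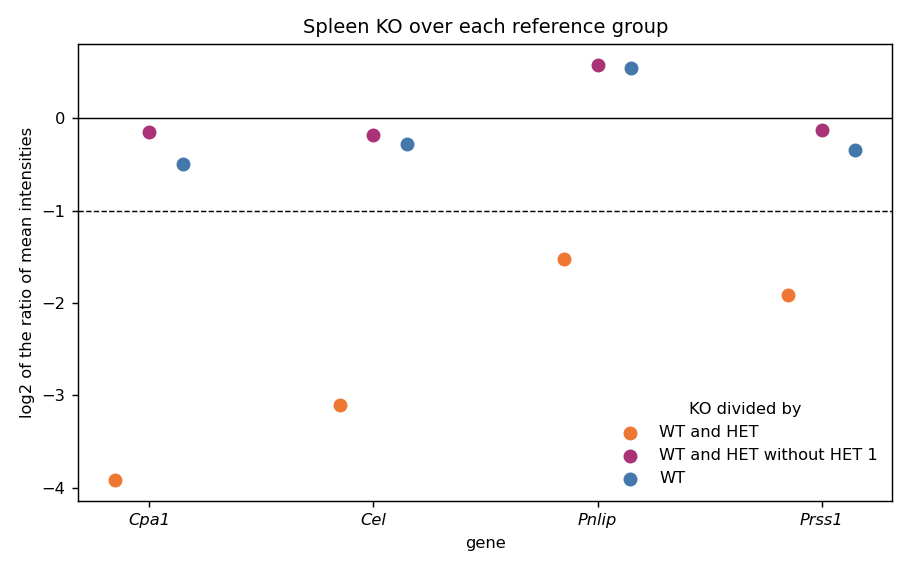
Log2 of the ratio of mean spleen intensities (vertical axis), KO divided by WT and HET (orange), by WT and HET without HET 1 (purple) or by WT (blue), for the 4 genes (horizontal axis). The dashed line is a ratio of 0.5, and only the ratios with HET 1 in the reference, 0.0663 to 0.346, lie below it.

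The brain and pituitary arrays, which the choice of the members did not use, served as a background. *Cpa1* ran from 1.82 to 3.26 with a median of 2.14 over 24 arrays, *Cel* from 2.22 to 3.75 with a median of 2.78, and *Prss1* from 1.44 to 3.45 with a median of 2.11. None of these 3 genes reached an intensity of 20 on any of the 24 arrays. *Pnlip* did so on 13 arrays and ran from 2.56 to 5.19 with a median of 4.34. Among 36 acinar list genes, 13 reached an intensity of 20 on at least 1 brain array, where 10663 of all 14557 genes did. The 13 included *Cela2a* (on 5 of 24 arrays), *Ctrl* (24), *Pnliprp1* (1) and *Xbp1* (24).

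*Pnlip* lay at 4.77 ± 0.38 (SD, n = 6) in striatum, 4.46 ± 0.32 in hippocampus, 4.44 ± 0.21 on arrays labelled pituitary gland and 3.06 ± 0.60 on arrays labelled olfactory bulbs. The first 3 differed by no more than their spread, and the last did not overlap the striatum or the pituitary-labelled arrays. It differed between tissues in limma's moderated F test (adjusted p = 4.96e-06), with a difference of -1.50 between the arrays labelled olfactory bulbs and the mean of the others, although 90.1% of the 10663 genes tested differed between tissues. KO minus WT was -0.21 ± 0.13 (SE) for *Pnlip* in the 6 values averaged over tissues (limma adjusted p = 0.71), while 1.16% of the genes passed. The arrays labelled olfactory bulbs were the ones with pituitary hormone transcripts, those labelled pituitary gland had *Omp*, and the part of either in the difference was not tested.

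*Cpa1*, *Cel* and *Prss1* did not pass the filter in the brain set, and were tested only without it. Between KO and WT their differences were 0.10 ± 0.12, -0.14 ± 0.18 and -0.18 ± 0.12 (SE), with limma adjusted p of 0.92, 0.93 and 0.81. None of the 13 acinar genes tested passed in KO against WT in limma, and 2 of them had an unadjusted p under 0.05, where 9.42% of all 10663 genes did. Between tissues 10 of the 13 passed, where 90.1% of all genes tested did.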

How the data were processed

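Total RNA was hybridised to Affymetrix Rat Gene 2.1 ST arrays, 2 per group. The deposited values are linear intensities that the authors made with RMA (no version or array library build is given in the sources used here), and levels are after the authors' normalization. No exact value or at most 1 was shared between an array of the spleen set and one of the brain set, against at least 23 within a set, so the sets were used apart. Here log2 of the deposited intensity was taken. Symbols came from the platform annotation, with 14824 probe sets of 1 symbol, 829 of several and 21032 of none. Where a gene had several probe sets, the one with the highest mean stood for it. A filter kept genes with an intensity of at least 20 on at least 1 array.

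The members and lists were chosen with earlier results of these data known. The text names the members, the acinar list genes, up to 3 genes of other lists by excess on HET 1, the 15 genes with the highest excess, and the 5 genes most like each member; genes quoted as array or label checks were chosen after their values were seen. Excess on HET 1 and ratios were described with no test. Brain comparisons used limma 3.58.1 in R 4.3.3 with Benjamini-Hochberg adjustment and a threshold of 0.05, and the fits were tested on simulated data. KO against WT used the mean of 4 tissues per genotype and replicate number, and tissues were compared on 24 arrays in 12 groups. The labels do not say that equal numbers in different tissues are the same rat, so these means may mix animals and may not be independent. Tables and figures used Python 3.11.15, pandas 2.3.3 and matplotlib 3.10.9. The number of arrays limits the precision. Alternatives covered filters, probe sets, normalization, references, variance models, blocks and left-out arrays, and those without HET 2 and KO 2 were chosen after seeing the data.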

Additional observations from a re-analysis of the deposited data

Results flagged for a closer look

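The HET arrays stand outside the comparison of KO with WT, and on HET 1 all 4 enzyme genes lay above both WT arrays. *Cpa1* read 9.70 on HET 1 against at most 4.87 on WT, *Cel* 8.78 against at most 4.56, *Pnlip* 7.41 against at most 4.23 and *Prss1* 6.82 against at most 4.27 (log2 intensity). These values chose the genes and come from 1 array.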

How the results depend on the processing

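The excess of the members on HET 1 stayed above 2 and kept its sign in every setting run. Filters leave a gene's own excess unchanged and leaving out a reference array cannot reduce it, so those settings could not have lowered it. HET 1 also chose the members, so this stability is no support. The number of genes past an excess of 2 was 17 or 18 with other filters, probe set rules, normalization and added BMDM arrays. It was 18 to 18 with each other spleen array left out. It was 22 with an excess of 1, 10 with an excess of 3 and 38 against the median of the other spleen arrays. The count of genes at a KO to littermate ratio of 0.5 or less was 290, and 215 to 1109 with 1 array left out (215 without HET 1, 438 without HET 2, 1109 without KO 1). The ratio of *Pnlip* was 0.216 without KO 1, and it turned from 0.346 to 1.45 against WT alone, 1.49 without HET 1 and 2.00 without HET 1, HET 2 and KO 2, where *Cpa1* turned to 1.10; these ratios leave out the array that was high.

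In KO against WT in the brain set, the count of 124 was 187 with a trended and robust variance, 218 with 24 arrays in 12 groups, and 73 to 121 with 1 genotype and replicate number left out (73 without WT 1, 79 without WT 2); the cause was not tested. With the replicate number as a block it was 97, and *Pnlip* had an adjusted p of 0.64. Deviations of equal numbers correlated at 0.09 between WT and KO, -0.04 between WT and HET and -0.10 between HET and KO in the means over tissues. Within tissues WT and KO correlated at 0.45 in hippocampus, 0.06 and -0.05 on the arrays labelled olfactory bulbs and pituitary gland, and -0.27 in striatum, so the numbers were not taken to pair the arrays. Between tissues the count of 9604 was 9578 with the block and 9050 to 9365 with 1 left out, and *Pnlip* kept its call, with adjusted p from 1.45e-06 to 0.000314 over the alternatives. With the filter at an intensity of 50, *Pnlip* was not tested in the brain set. Depth is not known for arrays, and readings under an intensity of 20 have little power to show a difference.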

Other observations

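*Ctrc*, which encodes chymotrypsinogen C, read 6.45 and 7.03 on the BMDM arrays, above 4.38 to 5.31 on the spleen arrays other than HET 1 and below 8.16 on HET 1. With the BMDM arrays among the references, the number of acinar genes past an excess of 2 was 16 in place of 17. Of 21861 probe sets with no symbol or several, 9 also had an excess of at least 2 on HET 1, all with no symbol, and the highest was 5.20. Outside the acinar lists, *Zbtb16* (1.37), *Clec4b2* (1.29) and *Or2l13* (1.05) were the genes with an excess between 1 and 2 among those that passed the filter; *Or2l13* was named after its value was seen.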
